A study of Zea mays with 9 samples.

Results

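Transcript levels of 9 genes, most of them annotated as copper proteins, were followed in the growth zone of the maize (B73) primary root under water deficit. The genes were 6 targets of miR408, the laccase gene GRMZM2G132169 (Laccase-13) and the Cu/Zn superoxide dismutase genes GRMZM2G058522 and GRMZM2G025992. They are 9 of the 39323 genes in the read tables, and all 9 were among the 26994 genes tested. They were chosen by gene identifier with their levels under stress already known, to set genes that rise beside genes that fall. Their changes between treatments are therefore a description and carry no p-value of their own. The miR408 targets are those that degradome sequencing, which reads the cut ends of transcripts, had paired with zma-miR408a,b-3p in the same study. The study annotated GRMZM2G082940 and GRMZM2G122302 as blue copper proteins, GRMZM2G352678 as a chemocyanin and GRMZM5G866053 as basic blue protein-like. It gave no function for GRMZM2G023847 and GRMZM2G097851, so nothing used here names these as copper proteins.

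Seedlings grew in the dark for 26 h in vermiculite held at 1 of 3 water potentials. The vermiculite had -0.02 MPa for well-watered roots, -0.3 MPa for mildly stressed roots and -1.6 MPa for severely stressed roots. These values are of the vermiculite and not of the root tissue. RNA was sequenced from the apical 1 cm of the root with the root cap, 5 roots pooled per replicate and 3 replicates per treatment. The paper states that the growth zone shortens as the deficit deepens, and that the segment held most or all of it. The segment thus need not hold the same zones in each treatment, and the part of this in the results below was not tested. All 9 libraries came from 1 inbred line, 1 tissue and 1 time point. The title of the series states another water potential for mild stress than the sample labels do, and the labels were followed. No stress had been applied to the well-watered roots, and the same 3 well-watered libraries serve in both comparisons with stress.

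Blue copper proteins are small secreted proteins that hold a single copper ion and pass electrons, and in plants many sit at the cell wall or plasma membrane. Laccases are multicopper oxidases of the cell wall that oxidise monolignols, and Cu/Zn superoxide dismutases turn superoxide into hydrogen peroxide and oxygen. In plants, miR408 and miR398 cut transcripts of such proteins when copper is scarce, which saves copper for other uses. Both miRNAs are also known for changing in abundance under drought, with a direction that differs between species and tissues.

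The mature sequences that pair with the 6 miR408 targets and with both dismutase genes are shown 5′ to 3′ as the study tabulated them, because these pairings define most of the 9 genes. Capitals mark the seed, bases 2 to 8. The seeds differ, but the grouping of the genes rests on the study's pairings alone, and no target site was examined.
zma-miR408b-3p, a: cUGCACUGccucuucccuggc
zma-miR398a, b-3p: uGUGUUCUcaggucgcccccg
GRMZM2G132169 was not among the genes paired with miR398, miR408 or miR528, and pairings with other miRNAs are not covered here. The dismutase pairings were made for single transcripts, GRMZM2G058522_T05 and GRMZM2G025992_T04.

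Libraries held 33401124 to 52072025 reads. Levels are CPM, the reads of a gene scaled to the library's reads over all tested genes, corrected by TMM factors that set the bulk of genes level between libraries. A gene is called changed at a false discovery rate (FDR) under 0.05 in edgeR's quasi-likelihood test over all tested genes. Without TMM factors the fold changes of all genes moved by a median of 0.13 (log2) between severe stress and well-watered roots, towards higher values under stress. Severe replicate 2 stood apart. Its log2 levels correlated with those of the other severe libraries at r = 0.981 and r = 0.986, against 0.993 or more in every other pair of replicates over 21998 genes. In leaf cells the Rubisco small subunit genes GRMZM2G098520 and GRMZM2G113033 are abundant, and here they reached at most 0.151 CPM. Of the other leaf markers, the C4 phosphoenolpyruvate carboxylase gene lay at 0.606 to 2.06 CPM. The pyruvate phosphate dikinase gene, listed in RefSeq under both a C4 and a cytosolic name, was well above that range. Its means were 121, 59.5 and 57.2 CPM in well-watered, mild and severe roots. The root hair gene rth3 had means of 59.7, 61.0 and 42.8 CPM in well-watered, mild and severe roots, and the part of these markers in the results below was not tested. In such bulk samples a smaller number of cells of a type and less RNA per cell cannot be told apart.

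Under mild stress 3 of the 9 genes were called changed, beside 8.55% of all tested genes. Under severe stress 6 were called, 4 higher and 2 lower, beside 54.7% of all tested genes, 28.0% higher and 26.7% lower. Between severe and mild stress 5 were called, beside 49.3%. The libraries of the 2 treatments did not overlap for 4 genes in the mild comparison, beside 31.7% of tested genes, and for 6 genes in the severe comparison, beside 62.7%. The median log2 fold change of the 9 genes was 0.10 under severe stress and 0.01 over all tested genes. Since the genes were picked with these values known, their counts are read no further.

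**Figure D1:**
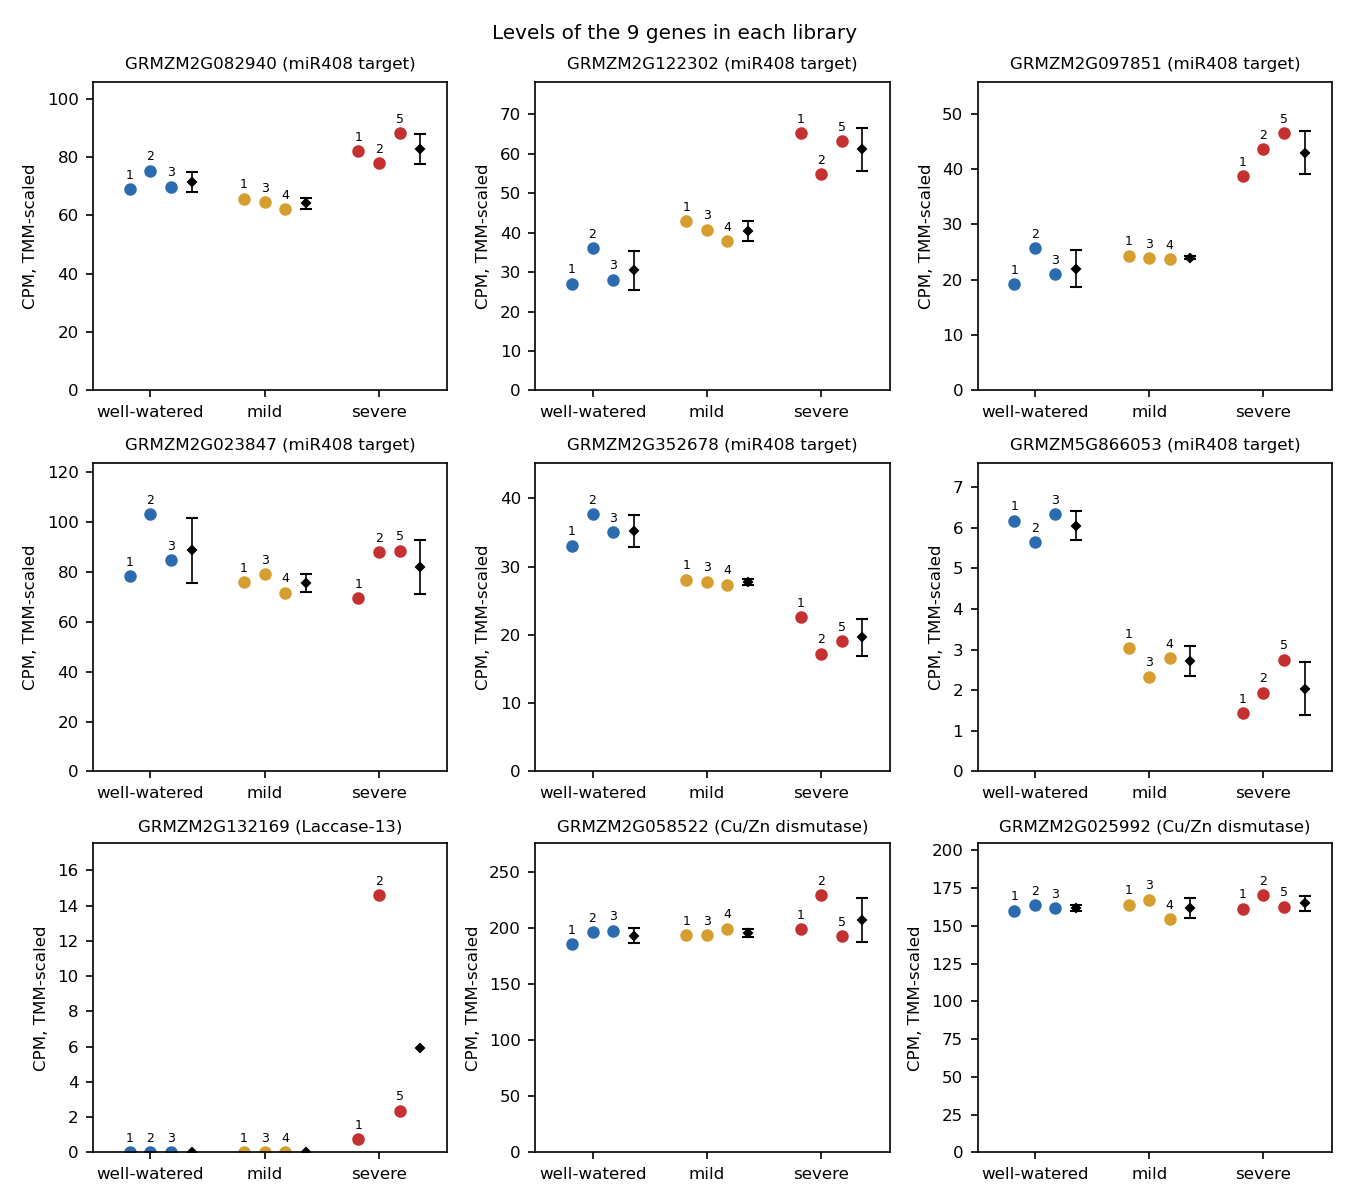
Level of each of the 9 genes in every library, in TMM-scaled CPM on a linear axis from 0, by treatment. Coloured points are libraries with their replicate number, black diamonds are means and bars are the SD over 3 libraries, left out where the SD is 0 or exceeds the mean. GRMZM2G122302 and GRMZM2G097851 stand highest under severe stress, GRMZM2G352678 and GRMZM5G866053 lowest, and the dismutase genes form level rows.

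GRMZM2G122302 lies on chromosome 6 of RefGen_v3 at 111357274 to 111358520, on the minus strand, with 1 annotated transcript of 2 exons. It had 27.1, 36.1 and 28.0 CPM in well-watered replicates 1, 2 and 3. It had 42.9, 40.7 and 37.9 CPM in mild replicates 1, 3 and 4, and 65.3, 54.9 and 63.2 CPM in severe replicates 1, 2 and 5. The 3 treatments formed separate steps, with well-watered replicate 2 closest to the mild libraries. The gene rose by 0.41 ± 0.11 (log2 ± SE, n = 3 per group) under mild stress and by 1.00 ± 0.11 under severe stress, a 2.01-fold difference. Severe stress also exceeded mild stress, by 0.59 ± 0.10.

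GRMZM2G097851 (chromosome 5, 191011831 to 191012938, minus strand) followed another course. Its levels were 19.2, 25.6 and 21.0 CPM in well-watered replicates 1, 2 and 3. Mild replicates 1, 3 and 4 had 24.3, 23.8 and 23.7 CPM. Under severe stress they were 38.7, 43.6 and 46.5 CPM. The mild libraries lay within the well-watered range and the severe libraries lay clear of both. Mild stress gave a log2 fold change of 0.12 ± 0.10, which was not called, and the gene rose by 0.97 ± 0.10 under severe stress. From mild to severe stress it rose by 0.84 ± 0.10.

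GRMZM2G082940 (chromosome 4, 151431868 to 151432825, minus strand) was, with GRMZM2G023847, the most abundant miR408 target. It had 69.0, 75.2 and 69.7 CPM in well-watered libraries, 65.7, 64.5 and 62.2 CPM under mild stress and 81.9, 77.8 and 88.2 CPM under severe stress. All mild libraries lay just below, and all severe libraries just above, the well-watered ones. The mild difference of -0.15 ± 0.06 was not called. The gene rose by 0.21 ± 0.06 under severe stress and by 0.37 ± 0.06 from mild to severe stress. The call under severe stress was lost without well-watered replicate 1 (log2 fold change 0.19), without well-watered replicate 3 (0.20) or without severe replicate 5 (0.16).

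GRMZM2G352678 (chromosome 1, 36424037 to 36425124, plus strand) went the other way, in steps. It had 33.0, 37.7 and 35.0 CPM in well-watered libraries, 28.1, 27.8 and 27.3 CPM under mild stress and 22.5, 17.2 and 19.1 CPM under severe stress. No library of any treatment overlapped another treatment. The gene fell by 0.35 ± 0.09 on the log2 scale under mild stress and by 0.85 ± 0.09 under severe stress. Severe libraries were also lower than mild ones, by a log2 difference of -0.50 ± 0.09.

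GRMZM5G866053 (chromosome 9, 32700595 to 32701200, minus strand) has the shortest transcript of the group, at 429 bases, and rested on 77 to 261 reads per library. It had 6.17, 5.64 and 6.34 CPM in well-watered libraries, 3.04, 2.33 and 2.78 CPM under mild stress and 1.44, 1.93 and 2.75 CPM under severe stress. All stressed libraries lay below all well-watered ones, while mild and severe libraries overlapped. The gene fell by 1.15 ± 0.20 on the log2 scale under mild stress and by 1.59 ± 0.20 under severe stress, to 0.33 of the well-watered level. The difference of -0.44 ± 0.21 between severe and mild stress was not called, although it was without severe replicate 5, at -0.69.

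GRMZM2G023847 (chromosome 1, 182122135 to 182123253, minus strand) was called in none of the comparisons. It had 78.3, 103 and 84.6 CPM in well-watered libraries, 75.9, 79.1 and 71.7 CPM under mild stress and 69.5, 88.1 and 88.5 CPM under severe stress. The ranges of the 3 treatments overlapped, and well-watered replicate 2 was the highest library. Mild stress gave a log2 fold change of -0.23 ± 0.11 and severe stress -0.11 ± 0.11. This gene varied by 14.7% (coefficient of variation) among well-watered replicates, while GRMZM2G082940, at a like level, varied by 4.77%.

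The mild calls of GRMZM2G122302 and GRMZM2G352678 were lost when single libraries were left out. Both were lost without well-watered replicate 3 or without any 1 of the 3 mild libraries, and GRMZM2G122302 also without well-watered replicate 1 and GRMZM2G352678 without well-watered replicate 2. Their log2 fold changes stayed between 0.34 and 0.55 and between -0.39 and -0.30 when single libraries were left out. The mild call of GRMZM5G866053 held without each library. Under severe stress GRMZM2G122302, GRMZM2G097851, GRMZM2G352678 and GRMZM5G866053 were called without each library in turn. The genes were picked with these values known, so the refits describe the calls and add no support to them.

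**Figure D2:**
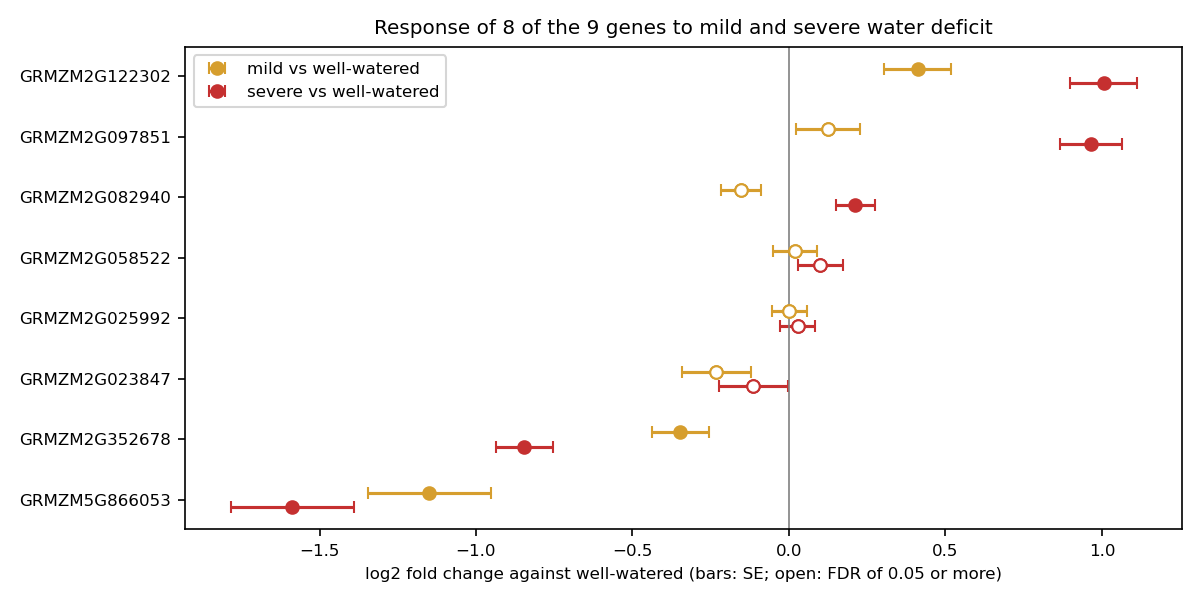
Log2 fold change against well-watered roots (horizontal axis) of 8 of the 9 genes under mild (yellow) and severe (red) stress, with bars for the SE and open symbols for genes with an FDR of 0.05 or more. GRMZM2G132169 is left out because it had no reads in well-watered roots. Severe values run from 1.00 for GRMZM2G122302 to -1.59 for GRMZM5G866053.

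Per transcript length, in the deposited RPKM (reads scaled to transcript length and to mapped reads, without TMM factors), the miR408 targets spanned a wide range in well-watered roots. GRMZM2G023847 had 80.7 ± 11.8 RPKM (SD, n = 3) and GRMZM2G082940 had 74.9 ± 3.53 RPKM, a difference within their spread. GRMZM2G352678 followed at 33.6 ± 2.30 RPKM and GRMZM2G122302 at 27.9 ± 4.49 RPKM. GRMZM2G097851 had 20.8 ± 3.17 RPKM and GRMZM5G866053, the lowest, had 13.1 ± 0.85 RPKM. All of these exceeded the median over all tested genes, 5.09 RPKM. Under severe stress the order of the middle genes was another one, with GRMZM2G122302 at 60.7 ± 3.86 and GRMZM2G097851 at 44.3 ± 4.64 RPKM, both above GRMZM2G352678 at 20.3 ± 2.28 RPKM.

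The share of each gene in the summed RPKM of the 6 targets does not depend on the scaling of libraries. GRMZM2G122302 made up 11.1 ± 0.71% in well-watered roots, 16.3 ± 0.52% under mild stress and 19.9 ± 1.96% under severe stress (SD, n = 3). GRMZM2G097851 made up 8.27 ± 0.45%, 9.96 ± 0.25% and 14.5 ± 0.79%. GRMZM2G352678 held 13.4 ± 0.45%, 11.6 ± 0.23% and 6.68 ± 1.11%, and GRMZM5G866053 held 5.25 ± 0.77%, 2.57 ± 0.34% and 1.55 ± 0.42%. GRMZM2G082940 held 29.9 ± 1.48%, 29.5 ± 0.21% and 30.9 ± 0.99%, while GRMZM2G023847 had 32.1 ± 1.52%, 30.1 ± 0.88% and 26.5 ± 2.94%. The sum itself was 251 ± 24.5 RPKM in well-watered roots, 232 ± 6.32 RPKM under mild stress and 305 ± 17.9 RPKM under severe stress. Unlike the shares, it depends on the scaling of libraries. Over the same treatments the median of all tested genes was 5.09, 5.15 and 6.11 RPKM.

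The ratio of the pair GRMZM2G122302 and GRMZM2G097851 to the pair GRMZM2G352678 and GRMZM5G866053 sums up the opposite courses within the group. It was formed in each library from summed CPM, with pairs chosen for these directions, so it is given without a test. On the log2 scale it was 0.24, 0.51 and 0.25 in well-watered replicates 1, 2 and 3. It was 1.11, 1.10 and 1.03 in mild replicates 1, 3 and 4, and 2.12, 2.36 and 2.33 in severe replicates 1, 2 and 5. Each treatment formed a narrow cluster apart from the others. The linear ratio thus went from 1.259 in well-watered roots to 2.12 under mild stress and 4.82 under severe stress.

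**Figure D3:**
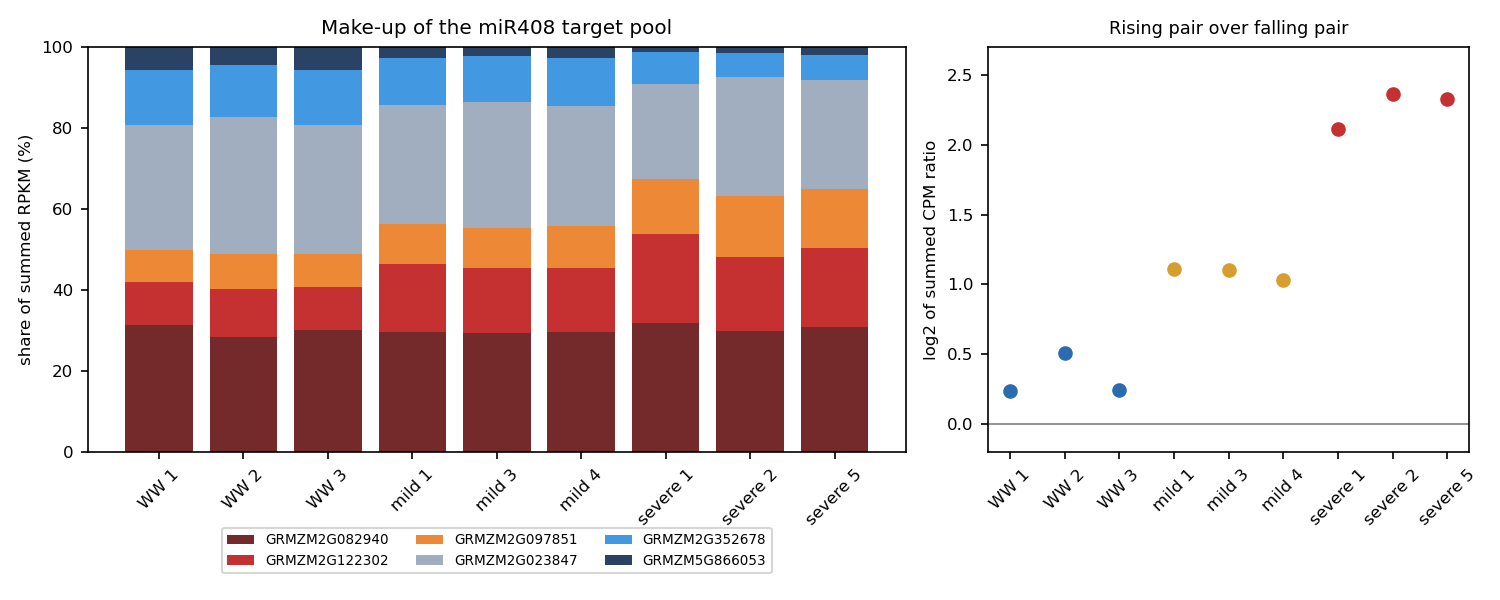
Left, share of each of the 6 miR408 targets in their summed RPKM (vertical axis, %), one bar per library. Right, log2 ratio of the summed CPM of GRMZM2G122302 and GRMZM2G097851 to that of GRMZM2G352678 and GRMZM5G866053 in each library. The ratio lies at 0.24 to 0.51 in well-watered, 1.03 to 1.11 in mild and 2.12 to 2.36 in severe libraries.

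GRMZM2G132169, named Laccase-13 in RefSeq (chromosome 3, 183701021 to 183703536, minus strand, 2 annotated transcripts), was detected under severe stress alone. It had 0 reads in all 3 well-watered and all 3 mild libraries, which allows up to 3 reads in each, or 0.0720 to 0.0909 CPM. Severe replicates 1, 2 and 5 had 40, 816 and 88 reads, or 0.748, 14.6 and 2.37 CPM. Severe replicate 2, the library that stood apart, thus held most of the reads. Against the floor of 3 reads per well-watered library, the mean under severe stress was at least 75.2-fold higher, and at least 19.9-fold higher without severe replicate 2. The gene entered the test only through its reads in the severe libraries, so its calls there, counted above, add nothing to these values. Its mean of 2.98 RPKM under severe stress stayed below the median over all tested genes, 6.11 RPKM. The severe libraries ran from 0.355 to 7.44 RPKM, so not every one lay below that median. In severe replicates 1, 2 and 5 it made up 0.376%, 5.997% and 1.15% of the summed RPKM of 13 laccase genes.

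Other laccases come from a list of genes that RefSeq names laccase, 7 besides GRMZM2G132169, of which 6 could be tested. Under severe stress 5 of the 6 rose and none fell, beside 28.0% of all tested genes called higher and 26.7% called lower, with a median log2 fold change of 1.61 against 0.01 over all tested genes. Under mild stress 3 rose and 3 were not called, beside 8.55% called among all tested genes. The largest fitted change in this list was that of GRMZM2G336337, a second gene named Laccase-13, with a fitted log2 difference of 3.97 ± 1.13 (adjusted p = 0.0104, edgeR quasi-likelihood test). Its severe libraries had 0.168, 6.39 and 0.646 CPM and overlapped the well-watered range of 0.0303 to 0.218 CPM. Without severe replicate 2 the log2 fold change was 1.30 and the gene was not called. GRMZM2G072808, a Laccase-17 gene, did not rest on that library. It had 1.33, 1.32 and 0.947 CPM in the well-watered and 5.57, 4.60 and 6.73 CPM in the severe libraries, and rose by 2.23 ± 0.25 (adjusted p = 1.89e-05). GRMZM2G164467 rose by 1.85 ± 0.16 (adjusted p = 2.17e-06), from 4.07 ± 0.17 to 14.7 ± 3.61 CPM. RefSeq holds it in 1 entry with GRMZM2G072780, so reads could be split between these near copies. GRMZM2G305526, another Laccase-17 gene, had a log2 fold change of 0.09 ± 0.17 (adjusted p = 0.672). GRMZM5G814718, a further gene named Laccase-13, had 1359 or more reads in every library. Its means were 46.7 ± 6.95, 52.9 ± 3.05 and 100.6 ± 9.03 CPM in well-watered, mild and severe roots. It rose by 1.10 ± 0.10 under severe stress (adjusted p = 3.91e-06, edgeR quasi-likelihood test).

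Symbols of the form lac1 to lac5 added 5 laccase genes after the values had been seen. The 3 that could be tested were called higher under severe stress, beside 28.0% of all tested genes, and their count is read no further. GRMZM2G367668 (lac5) had 0.726, 1.01 and 0.558 CPM in well-watered libraries, 1.81, 2.33 and 2.91 CPM under mild stress and 12.6, 30.9 and 15.4 CPM under severe stress. It rose by 4.68 ± 0.37 under severe stress (adjusted p = 1.42e-06). GRMZM5G842071 (LAC1) rose by 5.16 ± 0.46 (adjusted p = 3.05e-06), from 0.760 ± 0.335 to 27.7 ± 16.5 CPM, and shares its RefSeq entry with GRMZM2G400390, which had at most 2 reads. In both genes severe replicate 2 was again the highest library, and in the refits without each library in turn the log2 fold change was 4.18 or more for GRMZM2G367668 and 4.56 or more for GRMZM5G842071. GRMZM2G146152 (lac2) rose by 0.52 ± 0.09 (adjusted p = 0.000408), from 30.1 ± 3.41 to 43.3 ± 2.55 CPM.

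**Figure D4:**
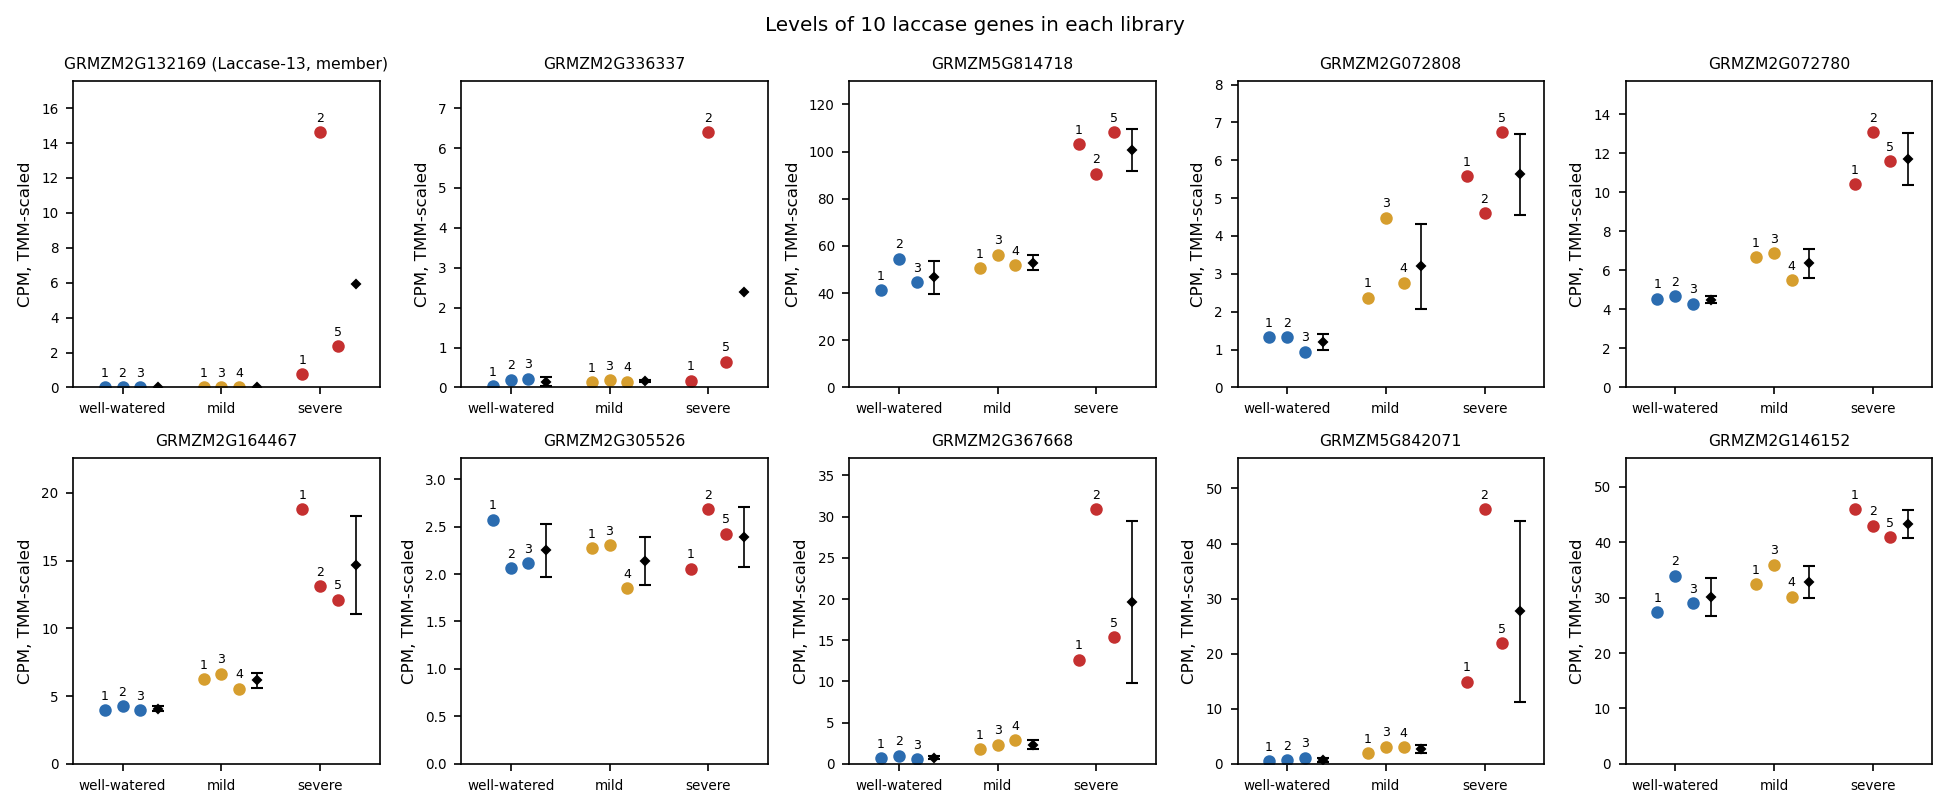
Levels of Laccase-13 (GRMZM2G132169) and 9 other laccase genes with reads, in TMM-scaled CPM from 0, by treatment. Points are libraries with replicate numbers, diamonds are means and bars the SD over 3 libraries, left out where the SD is 0 or exceeds the mean. Severe replicate 2 is the highest library for GRMZM2G132169 (14.6 CPM), GRMZM2G336337 (6.39 CPM), GRMZM2G367668 (30.9 CPM) and GRMZM5G842071 (46.3 CPM), and also for GRMZM2G072780 (13.1 CPM) and GRMZM2G305526 (2.68 CPM), but not for the other 4 genes.

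Per length, the dismutase genes were the most abundant of the 9 genes. GRMZM2G058522 (chromosome 9, 129535000 to 129538722, minus strand, 9 annotated transcripts) had 154 ± 5.05 RPKM and GRMZM2G025992 (chromosome 7, 171775019 to 171778224, minus strand, 6 annotated transcripts) had 106 ± 0.42 RPKM in well-watered roots. These levels exceeded those of 97.3% and 96.0% of the tested genes.

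GRMZM2G058522 had 185, 196 and 198 CPM in well-watered libraries, 194, 194 and 199.6 CPM under mild stress and 199, 229.6 and 193 CPM under severe stress. The ranges overlapped, and severe replicate 2 alone stood above the rest. Mild stress gave a log2 fold change of 0.02 ± 0.07 and severe stress 0.10 ± 0.07, neither called. Fitted as a single transcript, its most-read one, GRMZM2G058522_T06, gave -0.40 under mild stress and 0.32 under severe stress. Its difference of 0.72 between severe and mild stress was called, where the gene's was 0.08.

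GRMZM2G025992 had 159.98, 163 and 161 CPM in well-watered libraries, 164, 167 and 154 CPM under mild stress and 161, 170.4 and 162 CPM under severe stress. Its libraries lay close together, with a coefficient of variation of 1.09% among well-watered replicates, and all ranges overlapped. Mild stress gave a log2 fold change of 0.00 ± 0.06 and severe stress 0.03 ± 0.06, neither called.

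The scaling of libraries mattered for both dismutase genes. Without TMM factors the severe libraries no longer overlapped the well-watered ones, and both genes were called higher under severe stress, with log2 fold changes of 0.23 for GRMZM2G058522 and 0.15 for GRMZM2G025992. Their log2 fold changes with the factors were 0.10 and 0.03, and the median over all genes moved by 0.13.

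Unique reads change the picture only for genes with several transcripts. In these tables a unique read is one that matches a single transcript, and in all 23043 genes with 1 annotated transcript and any reads every read was unique. The column thus tells apart the transcripts of a gene and says nothing of reads that close copies share. For each of the 6 miR408 targets, total and unique reads were the same numbers. Unique reads were 0.896% of the reads of GRMZM2G058522, 0.911% for GRMZM2G025992 and 3.50% for GRMZM2G132169.

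In GRMZM2G025992 the unique reads numbered 67, 73 and 70 in well-watered replicates 1, 2 and 3, and 51, 51 and 67 in mild replicates 1, 3 and 4. In severe replicates 1, 2 and 5 they numbered 56, 78 and 44. Fitted alone, they put the severe log2 fold change at -0.60, which was called, where total reads gave 0.03. This call rests on under 1 in 100 of the gene's reads. Over all libraries 493 of the unique reads belonged to GRMZM2G025992_T01, 60 to T02 and 4 to T05. In GRMZM2G058522 unique reads gave 0.10 under severe stress, not called, equal to the value from total reads. The unique reads of GRMZM2G132169 were 1, 30 and 2 in severe replicates 1, 2 and 5.

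How the authors' software assigned reads among transcripts of the dismutase genes varied between replicates. GRMZM2G058522_T06 received 36.8 ± 7.30% of the gene's reads in well-watered roots, 27.8 ± 1.40% under mild stress and 42.0 ± 8.20% under severe stress (SD, n = 3). GRMZM2G058522_T05, the transcript paired with miR398, received 30.8 ± 4.06%, 31.0 ± 5.28% and 23.9 ± 4.98%, and only 16 to 24 reads per library were unique to it. In GRMZM2G025992 the transcript T01 received 75.0 ± 4.20%, 75.6 ± 2.18% and 72.97 ± 3.08%. GRMZM2G025992_T04, the paired transcript, received 2.31 ± 0.15%, 3.42 ± 0.76% and 2.99 ± 0.74% and had no unique read in any library. No test was made of these shares, since each rests on the division of shared reads.

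**Figure D5:**
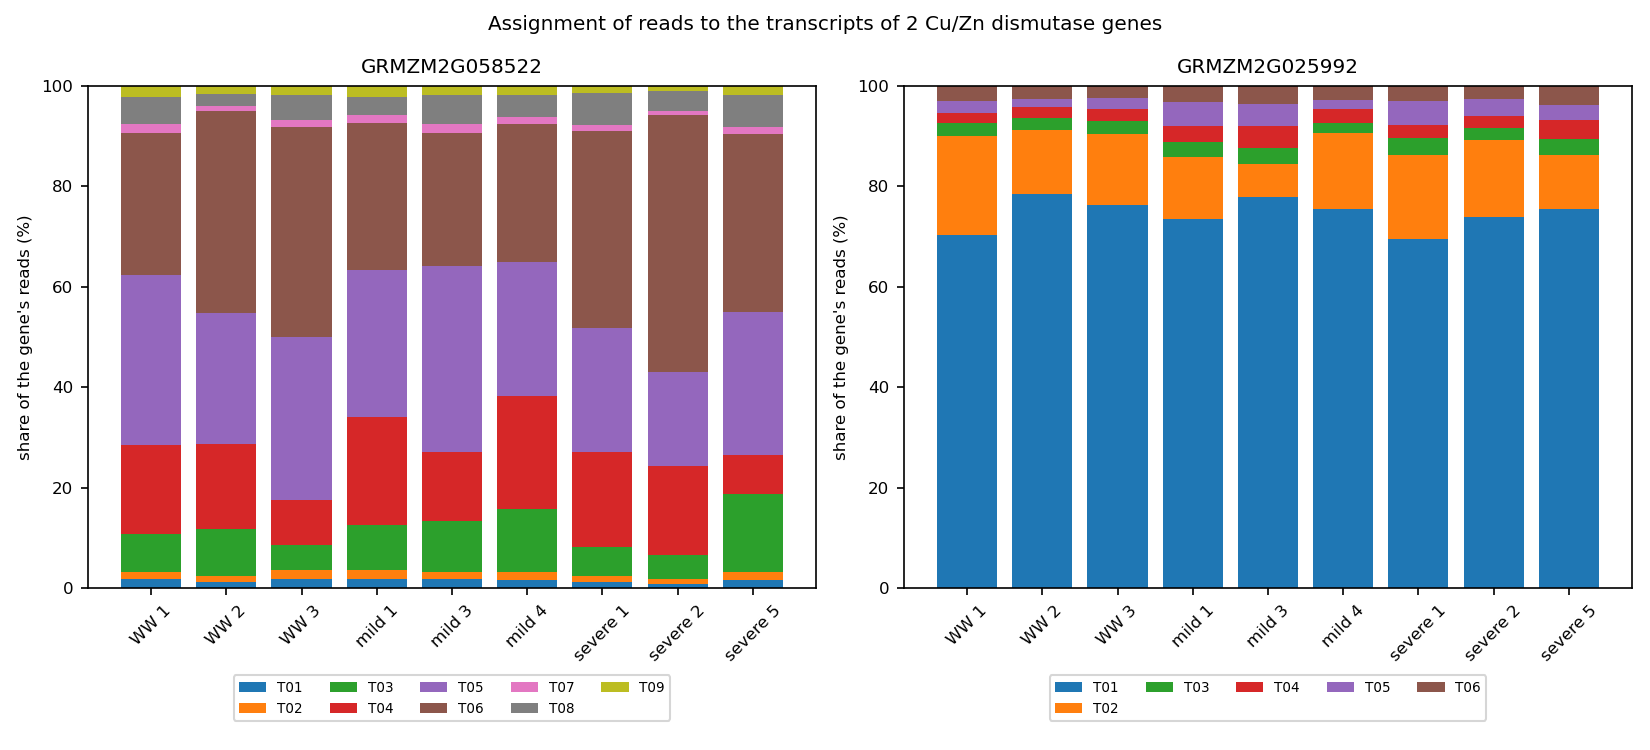
Share of each annotated transcript in the total reads of GRMZM2G058522 (left) and GRMZM2G025992 (right), in % on the vertical axis, one bar per library. GRMZM2G025992_T01 takes 69.5% to 78.5% of its gene's reads in every library, while the transcripts of GRMZM2G058522 differ in share among replicates of a treatment.

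A further Cu/Zn dismutase, GRMZM2G169890 (sod4 in RefSeq), is also paired with miR398 and belongs to the list of other miRNA targets. It had 92.6, 92.1 and 91.0 CPM in well-watered libraries, 104.0, 103.6 and 101 CPM under mild stress and 114, 142 and 122 CPM under severe stress. It rose by 0.45 ± 0.07 under severe stress (adjusted p = 0.000302), but the log2 fold change was 0.23 and not called with unique reads and 0.90 for its most-read transcript fitted singly. GRMZM2G106928, named sod-1a in RefSeq and added after its values had been seen, rose by 0.41 ± 0.06 (adjusted p = 0.000174), from 104 ± 1.65 to 137 ± 7.66 CPM. Of the summed RPKM of these 4 dismutase genes, GRMZM2G058522 held 36.4 ± 0.73% in well-watered, 34.6 ± 0.91% in mild and 32.5 ± 1.37% in severe roots (SD, n = 3). GRMZM2G025992 held 25.1 ± 0.22%, 23.7 ± 1.05% and 22.1 ± 0.57%. The files and RefSeq give the names SODCC.2 and SODCC.3 to these genes crosswise, so the gene identifiers are used.

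Besides the 9 genes, the study's degradome paired miR398, miR408 and miR528 with 7 genes, all tested. Under severe stress 4 of them rose, 1 fell and 2 were not called, beside 28.0% higher and 26.7% lower among all tested genes. Under mild stress 1 rose and 6 were not called, beside 8.55% called among all tested genes. Their median log2 fold change was 0.38 under severe stress, against 0.01 over all tested genes. GRMZM2G070322, a leucine-rich repeat extensin-like gene paired with miR528, had 57.3, 68.6 and 53.8 CPM in well-watered libraries, 86.6, 79.7 and 83.9 CPM under mild stress and 138, 123 and 153 CPM under severe stress. It rose by 0.48 ± 0.10 under mild stress (adjusted p = 0.00997) and by 1.20 ± 0.10 under severe stress (adjusted p = 1.75e-06). GRMZM2G107562, a copper ion binding protein gene paired with miR528, differed by 0.05 ± 0.08 (log2) between severe stress and control (adjusted p = 0.621). Its libraries had 46.9, 56.3 and 51.0 CPM without stress and 52.9, 52.6 and 54.5 CPM in severe stress, which overlap.

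The remaining pairings were with the 5p strands and with genes of no stated function. GRMZM2G149739, paired with miR408b-5p, rose by 1.23 ± 0.14 under severe stress (adjusted p = 1.77e-05), from 5.63 ± 1.18 to 13.1 ± 0.62 CPM. GRMZM2G375249, paired with the same strand, rose by 0.29 ± 0.11 (adjusted p = 0.0392), with overlapping libraries. Its call was lost without well-watered replicate 2 or 3, any mild replicate or severe replicate 1, with log2 fold changes of 0.28, 0.18, 0.27 to 0.29 and 0.18. It was also lost with unique reads (0.27), with only the 2 treatments compared (0.30) and with transcripts fitted singly (0.30). GRMZM2G097141, the third such gene, had a log2 fold change of 0.38 ± 0.19 (adjusted p = 0.108). It was called without well-watered replicate 3 (0.57) or severe replicate 2 (0.54), and without TMM factors (0.50). GRMZM2G165418, paired with miR398a-5p, fell by 0.27 ± 0.06 on the log2 scale (adjusted p = 0.0015), from 76.8 ± 1.5 to 63.5 ± 2.61 CPM. It was not called with unique reads, which make up 0.653% of its reads, or with its most-read transcript fitted singly, at -0.08 and -0.18.

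For each of the 9 genes the gene of most like pattern was looked up among 21971 others with a mean of at least 1 CPM, by Pearson's r of log2(CPM + 1) over the 9 libraries. The libraries share treatments, so a high r follows from any like response to stress, and r is given as a description. GRMZM2G352678 was most like AC211164.5_FG004 (r = 0.996), which went from 14.2 CPM in well-watered libraries to 10.1 CPM under mild and 6.68 CPM under severe stress. GRMZM2G097851 was most like GRMZM2G052666, MSRA4 in RefSeq (r = 0.996), with means of 17.4, 18.5 and 24.0 CPM. GRMZM2G132169 was most like GRMZM2G147491 (r = 0.996), whose severe libraries had 1.61, 26.1 and 3.99 CPM and so were also highest in severe replicate 2. GRMZM2G122302 was most like GRMZM2G415390 (r = 0.990), with means of 4.42, 8.64 and 29.5 CPM. The nearest genes of GRMZM5G866053, GRMZM2G082940 and GRMZM2G058522 were GRMZM2G104366 (r = 0.985), GRMZM2G093139 (r = 0.983) and GRMZM2G030636 (r = 0.959). Those of GRMZM2G023847 and GRMZM2G025992 were GRMZM2G113726 (r = 0.929) and GRMZM2G163914 (r = 0.913). GRMZM2G030636, the match of GRMZM2G058522, had 1.07, 3.74 and 0.916 CPM in severe replicates 1, 2 and 5. Like GRMZM2G058522 it stood highest in severe replicate 2.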

How the data were processed

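RNA-seq of 9 libraries was used, 3 per treatment, grouped by the treatment label. With CLC Workbench the authors mapped the reads to B73 RefGen_v3 gene models, and they deposited total and unique read counts and RPKM per transcript, with lanes combined and without normalization of the counts. The authors' deposited CPM of 46599 transcripts equal the counts divided by the library's sum, with no TMM factor. Total counts were summed by gene identifier for the 26994 genes with a listed transcript and fitted in R 4.3.3 with edgeR 4.0.16 (TMM, glmQLFit and glmQLFTest, treatment as the only term, all 9 libraries). The Benjamini-Hochberg adjustment ran over all 26994 genes. The SE of a log2 fold change is its size over the root of its F statistic. The fit was tested on simulated data.

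The 9 genes and the lists were chosen with earlier results of these data known. The text names all 9 genes, the 3 genes of each list and direction with the largest change among those called under severe stress, all other degradome targets of these miRNAs, and 1 gene of most like pattern per gene. Further laccases are named where they share a RefSeq name or entry with one of these. Names came from a RefSeq table of another assembly, which matched 8 of the 9 genes and 16651 of 26994 tested genes. It holds no descriptions, so the planned lists of phytocyanins, copper transport and other copper enzymes found no genes. Labels do not say that replicates came from separate plantings, and p-values then measure only the spread between these libraries. The alternatives were unique reads, other filters, no TMM factors, DESeq2 1.42.0, pairwise fits, a replicate block, single transcripts and leaving out each library. Python 3.11.15 and pandas 2.3.3 made the tables. The floor of 3 reads covers counting error only.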

Additional observations from a re-analysis of the deposited data

How the results depend on the processing

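Counts of called genes moved by more than 1.5 times in a few settings. Under mild stress, where 2309 genes were called, fits of only the 2 treatments compared called 3838, transcripts fitted singly 1005 and the replicate block 1414. Of the 9 genes, 3 were called under mild stress, against 1 (GRMZM5G866053) with the replicate block and with transcripts fitted singly. In the latter the tests of all transcripts were adjusted together. The copper lists are the 7 other laccases named in RefSeq and the 7 other miRNA targets, with 13 genes tested. Not all of these 13 are named as copper proteins. Of the 13, 4 were called under mild stress, beside 8.55% of all tested genes, against 2 with transcripts fitted singly. Between severe and mild stress the replicate block lowered the counts from 13310 to 6809 of the 26994 genes tested. The counts went from 5 to 3 of the 9 genes and from 9 to 5 of the 13 copper list genes. The genes of the 9 no longer called there were GRMZM2G082940 (log2 difference 0.27) and GRMZM2G122302 (0.44). Deviations of same-numbered libraries correlated at -0.003 to 0.114 (mean 0.066, 5 pairs), against -0.208 to 0.205 (mean -0.015) in the 22 other pairs. Not every same-numbered pair exceeded 0.1 and the labels name no shared source, so the numbers were not taken to pair the libraries. Under severe stress the block called 5 of the 9 genes, without GRMZM2G082940, and GRMZM2G097141 was called (0.51) and GRMZM2G375249 was not (0.27). Replicate number 4 occurs only under mild stress and number 5 only under severe stress. The block therefore fitted mild replicate 4 and severe replicate 5 exactly, and they added nothing to the differences between treatments. The cause of the losses with the block was not tested. Leaving out single libraries gave 1395 to 3633 called genes under mild stress, 12842 to 14975 under severe stress and 11285 to 13726 between them, 1 to 3, 5 to 6 and 5 to 6 of the 9 genes, and 1 to 5, 9 to 10 and 8 to 9 of the copper lists.

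The log2 ratio of rising to falling miR408 targets exceeded the well-watered value by 0.75 under mild and 1.94 under severe stress. Without GRMZM2G122302 the mild difference was 0.58, and without GRMZM2G352678 the differences were 1.47 and 2.62. Single libraries left out gave 0.70 to 0.84 and 1.89 to 2.03. The pairs were chosen for these directions, so these values are a description only. Settings other than those named moved no count of called genes by more than 1.5 times, and no gene of the 9 that was called from total reads with TMM factors changed direction. GRMZM2G025992, not called there, was called under severe stress with opposite signs without TMM factors (0.15) and with unique reads (-0.60), and the cause was not tested. Depth limits GRMZM5G866053, with 77 to 261 reads per library, and the unique reads of the dismutase genes, 44 to 130 per library.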
